A study of Homo sapiens with 8 samples.

Results

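The genes described here are the transcription factor MYC, its partner MAX and 34 genes whose products build ribosomes in the nucleolus, followed across 2 human leukaemia lines and their treatment with an EZH2 inhibitor. The 36 genes were listed by name, with earlier results of these data known. A probe set belonged to the group when the platform annotation gave it the symbol of 1 of them and no other symbol. This gave 68 of 54675 probe sets and covered 31 of the 36 genes. All 31 passed the filter on dim probe sets, and the probe sets that stand for them lay above the array median on all 8 arrays. NOP56, DKC1, BOP1 and PPAN had only probe sets with several symbols, and no probe set carried the symbol GNL3 in the annotation used. No expression values of these genes were analysed.

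RNA was measured on 8 Affymetrix HG-U133 Plus 2.0 arrays. Every probe set on them is a group of short DNA probes, and some probe sets read more than 1 transcript or gene. The labels give 2 lines, SUP-B8 and NALM-6, kept for 72 h in GSK126 (0.5 uM) or in its vehicle, DMSO. GSK126 is an inhibitor of EZH2, the methyltransferase of the Polycomb complex PRC2. The 4 groups are thus SUP-B8 with DMSO, SUP-B8 with GSK126, NALM-6 with DMSO and NALM-6 with GSK126, each with 2 arrays labelled as biological replicates. The labels give no EZH2 genotype for either line, and each line is a single culture model, so a difference between them is a difference between 2 lines. In bulk RNA, a change in every cell and a change in the share of cells that hold a transcript cannot be told apart.

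MYC binds DNA together with MAX, classically at the E-box, and is a general driver of cell growth. Among its best known targets are the genes for making ribosomes. In the nucleolus, RNA polymerase I copies ribosomal DNA into a long precursor, small nucleolar ribonucleoproteins (snoRNPs) modify and help to cut it, and separate sets of assembly factors turn its parts into the small (40S) and the large (60S) ribosomal subunit.

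The E-box was looked for in the members' promoters, because it is the sequence to which MYC and MAX bind. The windows come from RefSeq (GRCh38.p14) and run from 250 bases before to 50 bases after a transcription start. Windows were found for 30 of the 36 genes, 40 in all, and none for MYC, NOLC1, RRP12, RRP1B, NOP58 and BOP1. The letters searched were CACGTG, which read the same on both strands. In the upstream 250 bases they occurred in 4 of 40 member windows, against 6.34% of all 35116 windows and 8.17% of windows of the genes tested. These 4 belong to DDX21 (chr10:68956547-68956646, plus strand), LYAR (chr4:4290022-4290121, minus strand), NAT10 (chr11:34105529-34105628, plus strand) and UTP20 (chr12:101280005-101280104, plus strand). Their last 100 bases before the start follow, 5′ to 3′ in the direction of the gene, with the E-box in capitals.
DDX21: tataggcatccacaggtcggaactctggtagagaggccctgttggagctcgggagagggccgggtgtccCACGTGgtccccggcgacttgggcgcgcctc
LYAR: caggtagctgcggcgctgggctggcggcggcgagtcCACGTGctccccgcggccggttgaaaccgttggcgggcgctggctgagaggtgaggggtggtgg
NAT10: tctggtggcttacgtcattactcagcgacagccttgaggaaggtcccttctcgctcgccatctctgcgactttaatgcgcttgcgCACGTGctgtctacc
UTP20: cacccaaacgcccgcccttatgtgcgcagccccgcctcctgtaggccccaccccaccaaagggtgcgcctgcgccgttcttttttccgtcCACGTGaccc

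The whole 300-base window, a stretch chosen after the windows had been seen, held the E-box in 14 of 40 member windows (35.0%), against 7.26% of all windows and 9.32% of windows of genes tested. Most of the added matches lay after the start: 9 member windows (22.5%) against 0.883% of all windows and 1.11% of windows of genes tested. By gene, 14 of 30 members with a window (46.7%) held it, against 8.77% of all 27305 genes with a window and 12.5% of the 10569 of them that were tested. The short stretches below show the match in the 4 members that differed most between the lines among those with a match after or across the start, and in FBL, which differed least. They lie at chr3:51941892-51941921 (RRP9, minus strand), chr17:4555340-4555369 (MYBBP1A, minus strand), chr12:6568242-6568271 (NOP2, minus strand), chr4:109815781-109815810 (GAR1, plus strand) and chr19:39846356-39846385 (FBL, minus strand), and in RRP9 the match crosses the start.
RRP9: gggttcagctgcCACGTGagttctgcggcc
MYBBP1A: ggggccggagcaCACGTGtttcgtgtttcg
NOP2: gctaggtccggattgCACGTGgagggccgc
GAR1: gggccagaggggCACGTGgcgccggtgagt
FBL: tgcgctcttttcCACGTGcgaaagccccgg
A match describes these letters only. The 13 tested members with a match had a median log2 difference between the lines of 0.78, and the 13 with a window and no match had 0.91, with overlapping ranges of 0.15 to 1.19 and -0.09 to 2.11. This difference was not tested. GNL3, which also had a match, has no expression values here.

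All values are the deposited log2 values, so a difference of 1 is a doubling. Each gene is represented by its brightest probe set, and 13161 genes were tested together with limma, with Benjamini-Hochberg adjustment over all of them and a call at an adjusted p under 0.05. The deposited arrays had nearly equal medians, between 7.18 and 7.24, which hides any shift common to the whole transcriptome. The smallest two-sided p of an exact permutation test over 2 and 2 arrays is 0.333, so all calls rest on the model and on the replicates being separate cultures, as their labels imply. Differences are given ± SE from that model, and levels are compared only within a probe set. Replicate arrays correlated at 0.998 and arrays of different lines at 0.920 to 0.929 over all probe sets. The EZH2 transcript was called in no comparison, with means of 11.21 ± 0.11 and 11.20 ± 0.03 (SD, n = 2) with DMSO and GSK126 in SUP-B8, and 11.21 ± 0.06 and 11.22 ± 0.03 (SD, n = 2) in NALM-6.

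The labels of the lines were set against cell type markers. All 5 B-lineage markers measured, among them PAX5, EBF1 and CD79A, lay above the array medians in all groups. The 5 early B-cell markers DNTT, IGLL1, VPREB1, RAG1 and RAG2 lay above them in the arrays labelled SUP-B8 and below them in those labelled NALM-6, where DNTT read 6.89 and 6.84 with DMSO against 13.58 and 13.76. NALM-6 is usually described as a pre-B line with these markers, which here are high on the arrays labelled SUP-B8. Both names are therefore used below only as the labels on the arrays. Whether the labels were exchanged was not tested, and an exchange would reverse the sign of every difference between the lines. By their brightest probe sets, 4 of 5 myeloid and 3 of 6 T-cell markers were below the medians in all groups. A second probe set of the myeloid marker LYZ was above them on the 4 SUP-B8 arrays, at 7.84 and 7.80 with DMSO and 7.43 and 7.88 with GSK126, and below them in NALM-6. The part of such cells or of this transcript in the differences between the lines was not tested.

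The first question was how the lines differ with vehicle alone. With DMSO, 30 of 31 members were called higher in arrays labelled SUP-B8 than in those labelled NALM-6 and 0 were called lower, where 37.8% of all genes tested were called higher and 30.6% lower. The median difference of the members was 0.81, against 0.04 for all genes, and 8 members differed more than 2-fold. All 4 SUP-B8 arrays lay above all 4 NALM-6 arrays in 29 of 31 members, whichever the treatment, as in 34.0% of all genes tested. By these brightest probe sets NPM1 had the opposite order, and NOP58 overlapped. As the members were chosen with earlier results of these data known, their shares and those of all genes are a description only.

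**Figure D1:**
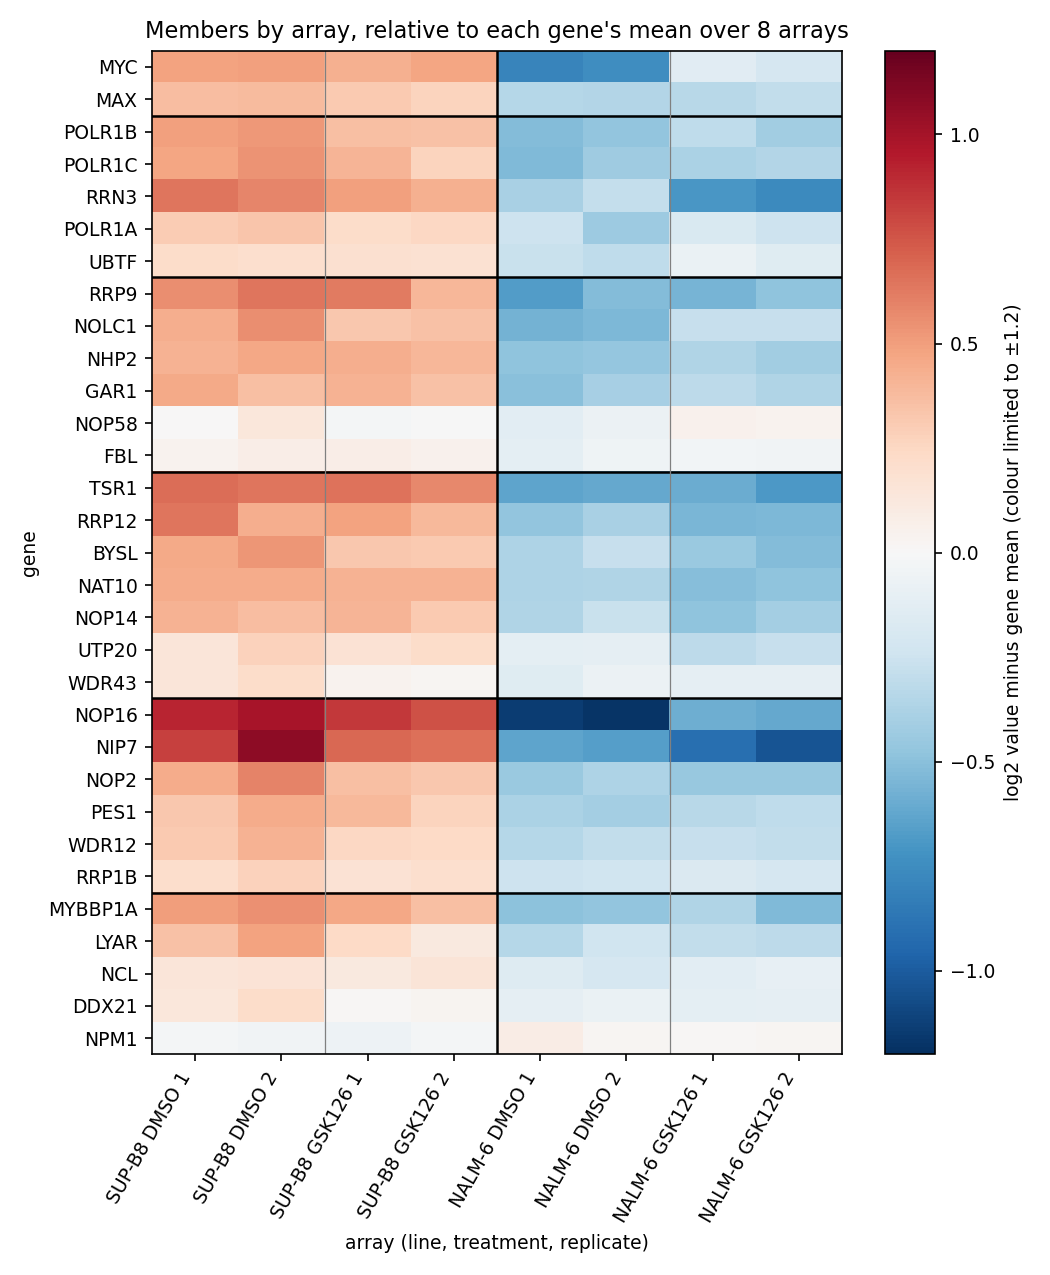
The heat map gives the log2 value of each of the 31 members (rows, ordered by role) on each of the 8 arrays (columns) minus that gene's mean over the arrays, red above and blue below. The 4 SUP-B8 columns are red and the 4 NALM-6 columns blue in nearly every row, NPM1 has the opposite order, and within NALM-6 the GSK126 columns of MYC and NOP16 are paler than the DMSO columns.

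MYC itself read 13.49 and 13.50 in SUP-B8 with DMSO and 13.43 and 13.48 with GSK126. In NALM-6 it read 12.21 and 12.26 with DMSO and 12.87 and 12.81 with GSK126. The SUP-B8 arrays were thus all higher, and the NALM-6 pairs did not overlap each other. The difference with DMSO was 1.26 ± 0.05 (2.39-fold, limma adjusted p = 7.74e-08). MAX read 12.40 and 12.42 in SUP-B8 against 11.69 and 11.68 in NALM-6 with DMSO, a difference of 0.72 ± 0.05 (adjusted p = 1.54e-06).

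Of the RNA polymerase I genes, all 5 were called higher in SUP-B8. POLR1B, which encodes the second largest subunit of the enzyme, read 11.25 and 11.27 against 10.24 and 10.28 and was 2.01-fold higher (SE 0.05 on the log2 scale, limma adjusted p = 4.32e-07). POLR1C, a subunit shared with RNA polymerase III, read 10.66 and 10.73 against 9.66 and 9.76, a difference of 0.98 ± 0.06. RRN3, the factor that brings the polymerase to its promoter, read 11.39 and 11.34 against 10.37 and 10.46, a difference of 0.95 ± 0.06. In all 3 genes the lines lay far apart and the replicates close together. RRN3 has close pseudogene copies in the genome, and its single probe set may read them too. POLR1A, the largest subunit, differed by 0.66 ± 0.07, and UBTF, which binds ribosomal DNA, by 0.49 ± 0.05.

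All 6 snoRNP members were called higher in SUP-B8. RRP9, a protein of the U3 particle that guides the earliest cuts of the precursor, read 10.66 and 10.75 against 9.44 and 9.59, a difference of 1.19 ± 0.09 (limma adjusted p = 3.26e-06). NOLC1, a nucleolar chaperone of snoRNPs, read 12.97 and 13.09 against 11.97 and 12.00, a difference of 1.05 ± 0.05. The H/ACA core proteins NHP2 and GAR1, needed for pseudouridine formation, differed by 0.91 ± 0.05 and 0.86 ± 0.06. The box C/D core proteins stood apart with small differences: NOP58 by 0.17 ± 0.06 (adjusted p = 0.0267) and FBL, the RNA methyltransferase fibrillarin, by 0.15 ± 0.05 (adjusted p = 0.0273). Both calls were lost without SUP-B8 DMSO replicate 2 or NALM-6 DMSO replicate 1, with adjusted p up to 0.150 for NOP58 and 0.125 for FBL. They were also lost with no filter, with centred arrays and with only the 4 arrays compared, and that of FBL with a second quantile normalization, where it differed by 0.07 (adjusted p = 0.131).

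All 7 members of small-subunit maturation were called higher in SUP-B8. TSR1, a late factor of 40S assembly, read 11.77 and 11.74 against 10.47 and 10.49, a difference of 1.28 ± 0.05 (limma adjusted p = 1.14e-07). RRP12, which takes part in the export of precursor subunits, read 9.64 and 9.44 against 8.53 and 8.62, a difference of 0.97 ± 0.07. BYSL (0.82 ± 0.06), the acetyltransferase NAT10 (0.81 ± 0.05) and NOP14 (0.71 ± 0.06) came next. UTP20 and WDR43, components of the early small-subunit particle, differed least, by 0.33 ± 0.06 and 0.29 ± 0.05.

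The 6 measured members of large-subunit maturation were called higher in SUP-B8 too, and 2 of them differed most among all members. NOP16, a nucleolar protein of early 60S particles, read 12.45 and 12.53 against 10.40 and 10.36, a difference of 2.11 ± 0.05 (4.31-fold, limma adjusted p = 5.79e-09). NIP7, which acts in precursor processing, read 11.14 and 11.38 against 9.68 and 9.65, a difference of 1.59 ± 0.08 (3.02-fold). The RNA methyltransferase NOP2 differed by 0.93 ± 0.06. PES1 and WDR12, partners of 1 complex, differed by 0.78 ± 0.06 and 0.68 ± 0.05, and RRP1B by 0.48 ± 0.05.

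Among the abundant nucleolar proteins and regulators, 4 of 5 were called higher in SUP-B8. MYBBP1A, a nucleolar MYB-binding protein, read 10.42 and 10.47 against 9.43 and 9.45, a difference of 1.01 ± 0.07. LYAR, a growth-linked nucleolar protein, read 11.45 and 11.59 against 10.76 and 10.87, a difference of 0.70 ± 0.07. The most abundant proteins of the nucleolus differed little: nucleolin (NCL) by 0.33 ± 0.05, the helicase DDX21 by 0.28 ± 0.05 and nucleophosmin (NPM1) by -0.09 ± 0.05 (limma adjusted p = 0.128). NPM1 read 14.38 and 14.36 in SUP-B8 against 14.49 and 14.43 in NALM-6, near the top of the scale. Its 2 other probe sets did not have this order: in the fit of probe sets described further on, 1 was called higher in SUP-B8 (0.23, limma adjusted p = 0.0112) and the other overlapped (0.04). NPM1 has many processed pseudogenes, which its probe sets may read as well.

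**Figure D2:**
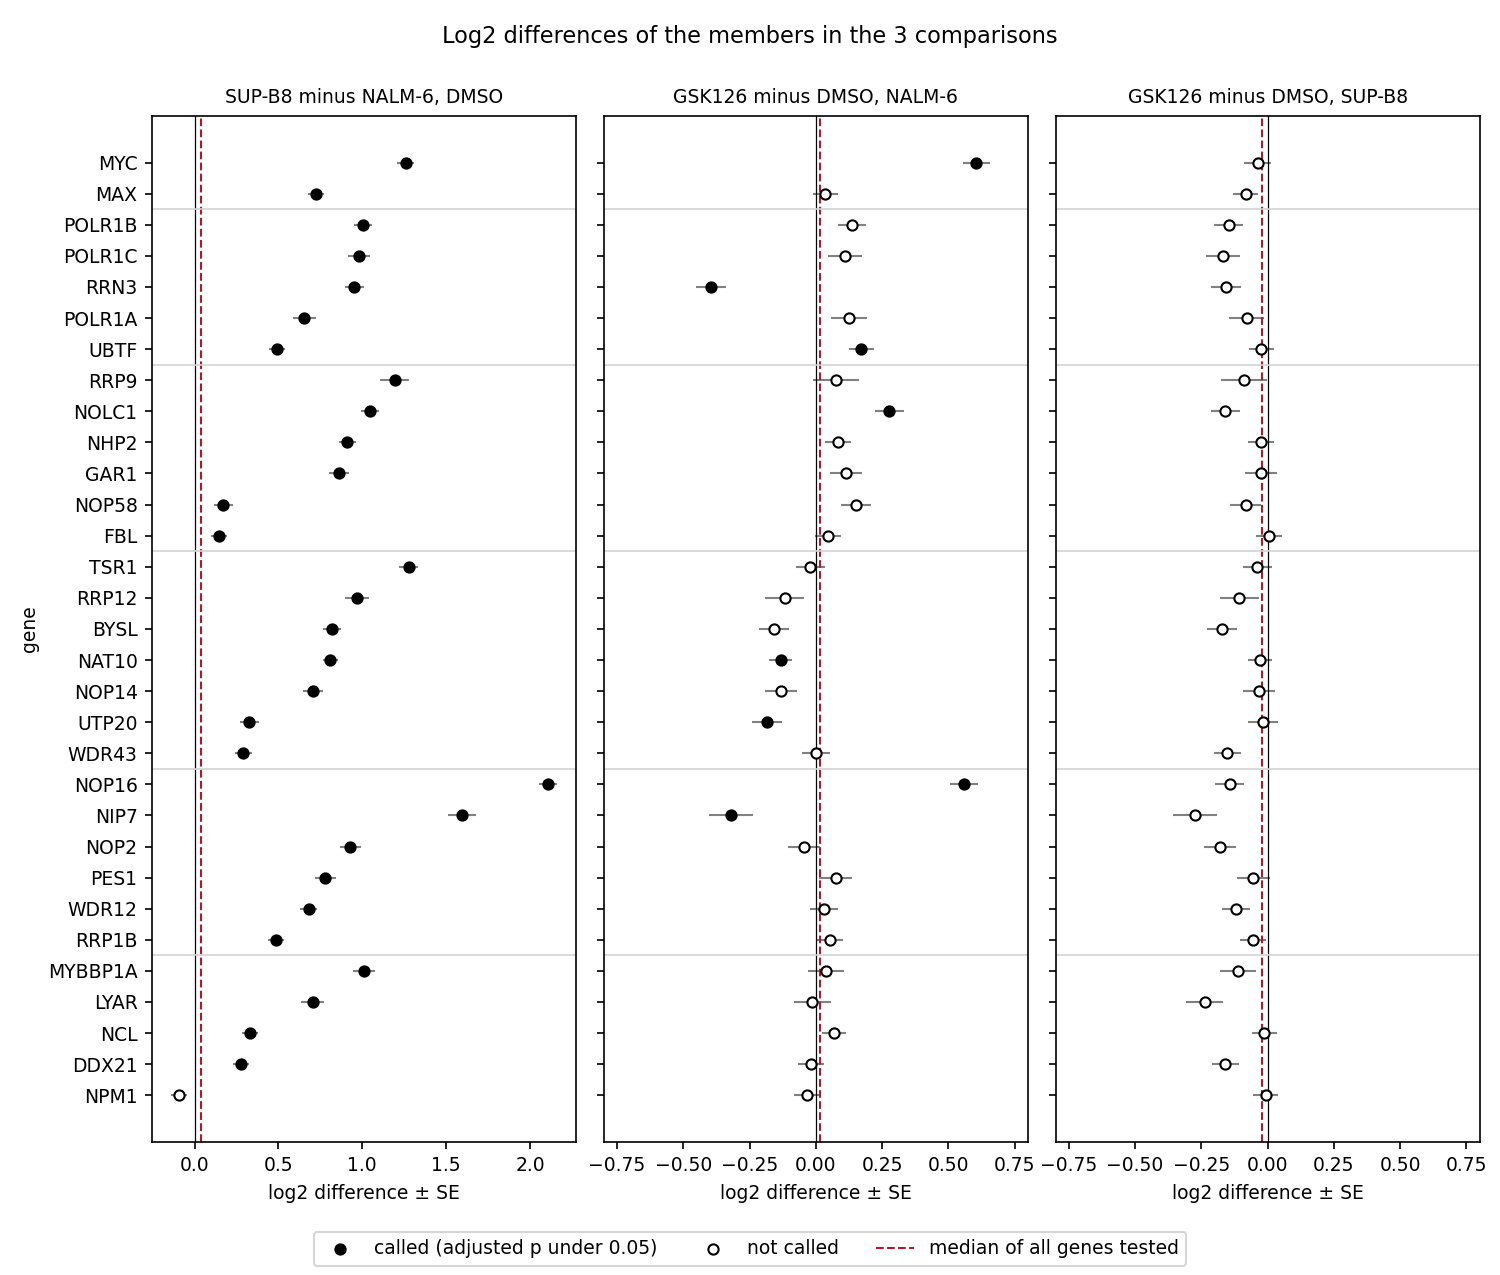
Each row is a member, ordered by role, and each point its log2 difference with its SE in 3 comparisons: SUP-B8 minus NALM-6 with DMSO, GSK126 minus DMSO in NALM-6, and GSK126 minus DMSO in SUP-B8. Filled points passed the test, the dashed line is the median of all genes tested (0.04, 0.02 and -0.02), and the points are nearly all filled on the left, mixed in sign in the middle, and open and to the left of 0 on the right.

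Most proliferation markers went the other way from the members: 6 of 7 were called lower in SUP-B8 with DMSO, against 30.6% of all genes tested. MKI67 differed by -0.73 ± 0.07 and CDK1 by -0.44 ± 0.05, and PCNA was higher by 0.40 ± 0.05. The MKI67 difference rests on 1 of 4 probe sets (the others were at -0.18, 0.08 and -0.14), and CCNB1 had a second probe set that was higher in SUP-B8 by 0.30. In the fit of probe sets described further on, the brightest ones of BUB1 and CCNB1 were not called (limma adjusted p = 0.0877 and 0.0732). The mean level of the 7 markers was 12.35 to 12.40 over the SUP-B8 and 12.58 to 12.62 over the NALM-6 arrays with DMSO. The part of growth rate in the difference between the lines was not tested.

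The second question was what GSK126 did in each line, and the lines are described side by side. In arrays labelled NALM-6, 4 of 31 members were called higher with GSK126 and 4 lower, against 20.8% of all genes tested called higher and 18.5% lower. At 12.9% in each direction the members' shares were below these backgrounds. The members' median was 0.04 (0.02 for all genes). The 4 that rose were MYC, NOP16, NOLC1 and UBTF, and the 4 that fell were RRN3, NIP7, UTP20 and NAT10. Calls of opposite sign within a role were those of UBTF and RRN3 and of NOP16 and NIP7. The calls on UBTF and NIP7 were not firm, as described below.

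MYC rose by 0.60 ± 0.05 (1.52-fold, limma adjusted p = 5.27e-05), from 12.21 and 12.26 to 12.87 and 12.81, and stayed below every SUP-B8 array. NOP16 rose by 0.56 ± 0.05 (1.47-fold, adjusted p = 0.000111), from 10.40 and 10.36 to 10.96 and 10.93. NOLC1 rose by 0.28 ± 0.05 (1.21-fold, adjusted p = 0.00454), from 11.97 and 12.00 to 12.26 and 12.26. In all 3 the treated arrays lay between the NALM-6 DMSO arrays and the SUP-B8 arrays, so the gap between the lines was smaller after treatment. MAX, at 11.70 and 11.74 after 11.69 and 11.68, differed by 0.03 ± 0.05 and was not called.

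Within the RNA polymerase I group, RRN3 fell by 0.40 on the log2 scale (± 0.06, 1.32-fold, limma adjusted p = 0.000853), from 10.37 and 10.46 to 10.05 and 9.98. UBTF rose by 0.17 ± 0.05 (adjusted p = 0.0212), from 9.48 and 9.44 to 9.66 and 9.60. The UBTF call was lost without NALM-6 DMSO replicate 2 or either NALM-6 GSK126 array, with adjusted p up to 0.141. It was lost as well with no filter, with centred arrays, with only the 4 arrays compared and with the mean of the probe sets, where the value was 0.06 (adjusted p = 0.318). In the probe-set fit none of its 5 probe sets was called higher and a dim one was called lower (-0.25). The enzyme's own subunits POLR1B (0.14 ± 0.05), POLR1A (0.12 ± 0.07) and POLR1C (0.11 ± 0.06) were not called.

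NIP7 fell by 0.32 on the log2 scale (± 0.08, limma adjusted p = 0.0164), from 9.68 and 9.65 to 9.41 and 9.28. Its call was lost without either NALM-6 DMSO array or NALM-6 GSK126 replicate 2 (adjusted p up to 0.106), while its other probe set fell by 0.33 as well. All 7 members of small-subunit maturation had differences below 0, between -0.18 and 0.00, although with quantile normalization applied again 2 of the 7 were above 0. UTP20, from 8.54 and 8.55 to 8.34 and 8.38, differed by -0.18 ± 0.06 (adjusted p = 0.0317) and NAT10, from 10.80 and 10.82 to 10.66 and 10.70, by -0.13 ± 0.05 (adjusted p = 0.0468). These 2 calls were the least firm: the one on UTP20 was lost in 6 of 8 omissions of single arrays, all but the SUP-B8 DMSO arrays (adjusted p up to 0.147), and the one on NAT10 in all 8 (adjusted p up to 0.217). BYSL, from 10.24 and 10.33 to 10.16 and 10.09, was just outside the threshold with -0.16 ± 0.06 (adjusted p = 0.0540).

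The 6 snoRNP members all had differences above 0, with a median of 0.10, and NOLC1 alone was called. NOP58 was at 0.15 ± 0.06 (limma adjusted p = 0.0680), from 12.76 and 12.81 to 12.94 and 12.93. None of the 5 abundant nucleolar proteins and regulators was called, and all lay between -0.04 and 0.07, with 0 of 5 at an unadjusted p under 0.05. NCL read 13.78 and 13.74 before and 13.81 and 13.84 after treatment, and MYBBP1A 9.43 and 9.45 before and 9.56 and 9.39 after.

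**Figure D3:**
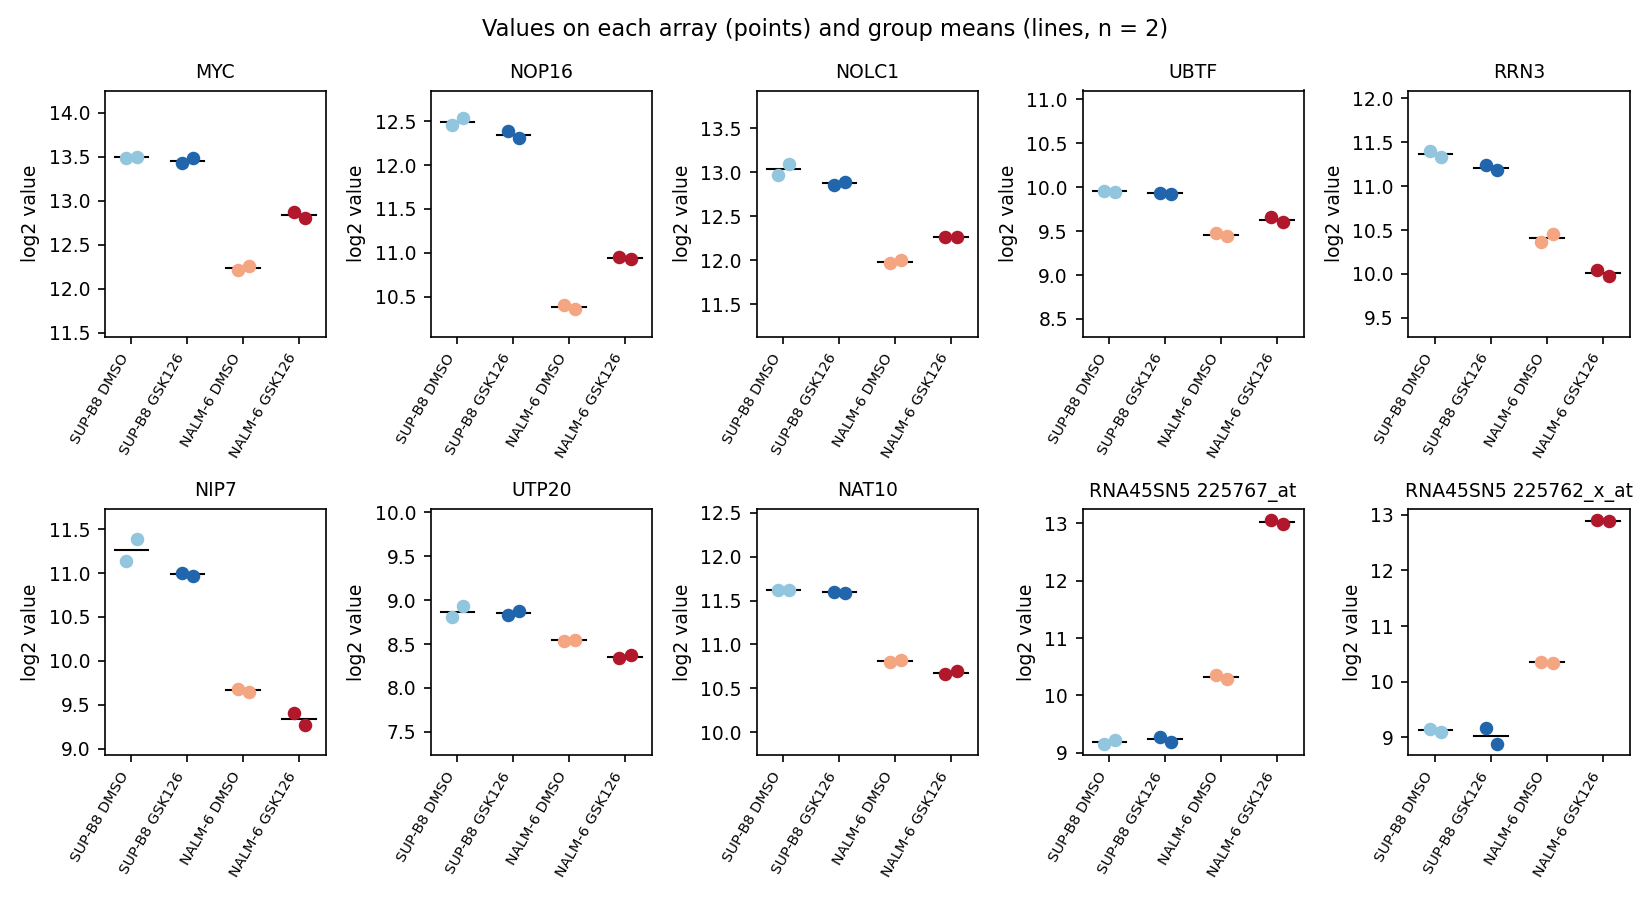
Points are the log2 values on single arrays and lines the group means (n = 2), with the axes set for each panel. The panels show the 8 members called in NALM-6 and the 2 probe sets of RNA45SN5, 1 panel each. MYC, NOP16, NOLC1 and UBTF are higher with GSK126 than with DMSO in NALM-6, RRN3, NIP7, UTP20 and NAT10 are lower, and both RNA45SN5 panels jump from 10.3 to about 13.

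In arrays labelled SUP-B8, 0 of 31 members were called with GSK126 in either direction by limma, against 1.91% of all genes tested called higher and 0.334% lower. At an unadjusted p under 0.05 there were 11 of 31 members (16.7% of all genes), and a trended robust variance prior called 4 lower: NOLC1, NIP7, DDX21 and LYAR. The members' differences had nearly 1 sign: 30 of 31 were below 0, as were 59.0% of all genes, and their median was -0.08 against -0.02. All members were read on the same arrays, so their signs and orders are not independent and are a description only. Both DMSO arrays lay above both GSK126 arrays in 20 of 31 members, the opposite order occurred in 0, and for all 13161 genes these orders occurred in 3951 and 2563. The sign depended in part on scaling: 25 of 31 were below 0 after a second quantile normalization (median -0.06) and 29 of 31 with arrays centred on their medians (median -0.07). Without SUP-B8 GSK126 replicate 2 it was 26 of 31.

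The largest of these differences were small. NIP7 read 11.14 and 11.38 with DMSO and a mean of 10.99 ± 0.02 (SD, n = 2) with GSK126, a difference of -0.27 ± 0.08 (limma adjusted p = 0.165). LYAR read 11.45 and 11.59 against 11.34 and 11.22, a difference of -0.24 ± 0.07 (adjusted p = 0.146). NOP2 read 10.45 and 10.59 against 10.36 and 10.32, a difference of -0.18 ± 0.06 (adjusted p = 0.208). The pairs did not overlap in these 3 genes, yet none passed the test over all genes. The same was so for BYSL, POLR1C, NOLC1, DDX21, RRN3 and WDR43, at -0.17 to -0.15 each. MYC differed by -0.04 ± 0.05 (adjusted p = 0.747), MAX by -0.08 ± 0.05 and RRP9 by -0.09 ± 0.09.

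The responses of the lines were then compared directly, as the SUP-B8 response minus the NALM-6 response. In this test 4 of 31 members were called lower and 0 higher, against 14.5% of all genes tested called lower and 10.9% higher. At an unadjusted p under 0.05 there were 8 of 31 members, against 37.5% of all genes tested. RRN3 was called higher with probe set means and with a trended robust prior, and was at 0.29 without NALM-6 DMSO replicate 1. NOP16 differed by -0.70 ± 0.08 (limma adjusted p = 0.000488), MYC by -0.64 ± 0.07 (adjusted p = 0.000535) and NOLC1 by -0.44 ± 0.08 (adjusted p = 0.00489). These are the members that rose most in NALM-6, and none of the 3 was called in SUP-B8. POLR1B, with 11.25 and 11.27 followed by 11.12 and 11.11 in SUP-B8 and 10.24 and 10.28 followed by 10.45 and 10.34 in NALM-6, differed by -0.28 ± 0.08 (adjusted p = 0.0280) although neither response was called. Its call was lost in 5 of 8 omissions (SUP-B8 DMSO replicate 2, either SUP-B8 GSK126 array, and replicate 1 of both NALM-6 groups; adjusted p up to 0.105). RRN3, at 0.24 ± 0.08 (adjusted p = 0.0603), and NIP7, at 0.05 ± 0.12 (adjusted p = 0.813), were not called different between the lines.

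The 68 probe sets were also tested one by one, within a fit of all 54675. With DMSO, 56 of 68 were called higher in SUP-B8 and 2 lower, against 22.8% and 20.8% of all probe sets, and in NALM-6 with GSK126 8 were called higher and 5 lower, against 10.4% and 10.1%. Of the 57 probe sets above the array medians on all arrays, 52 were higher and 0 lower between the lines. The shares of all probe sets given above include dim ones, and no share was computed for bright probe sets alone. MYC and RRN3 rest on 1 probe set each. NOP16 had a second bright probe set with the same course (2.26 between the lines and 0.38 with GSK126 in NALM-6), and 2 others showed no difference between the lines (-0.07 and -0.09). With the mean of its 4 probe sets NOP16 differed by 1.05 between the lines and by 0.22 with GSK126 in NALM-6.

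Other members had probe sets that disagreed in size or sign. For POLR1A a probe set reading 9.85 and 9.98 in SUP-B8 against 7.63 and 7.69 in NALM-6 gave 2.26 (± 0.07), well above the 0.66 of the brightest one. For MAX a dim probe set, 7.81 and 7.73 with DMSO and 7.13 and 7.17 with GSK126 in NALM-6, fell by 0.62 on the log2 scale to below the array medians, while the other 4 lay between -0.07 and 0.03. For TSR1 a probe set rose by 0.41 ± 0.12 in NALM-6 with GSK126 where the brightest was at -0.02, and for POLR1B a second one rose by 0.29 ± 0.07. Which transcripts these probe sets read was not tested.

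**Figure D4:**
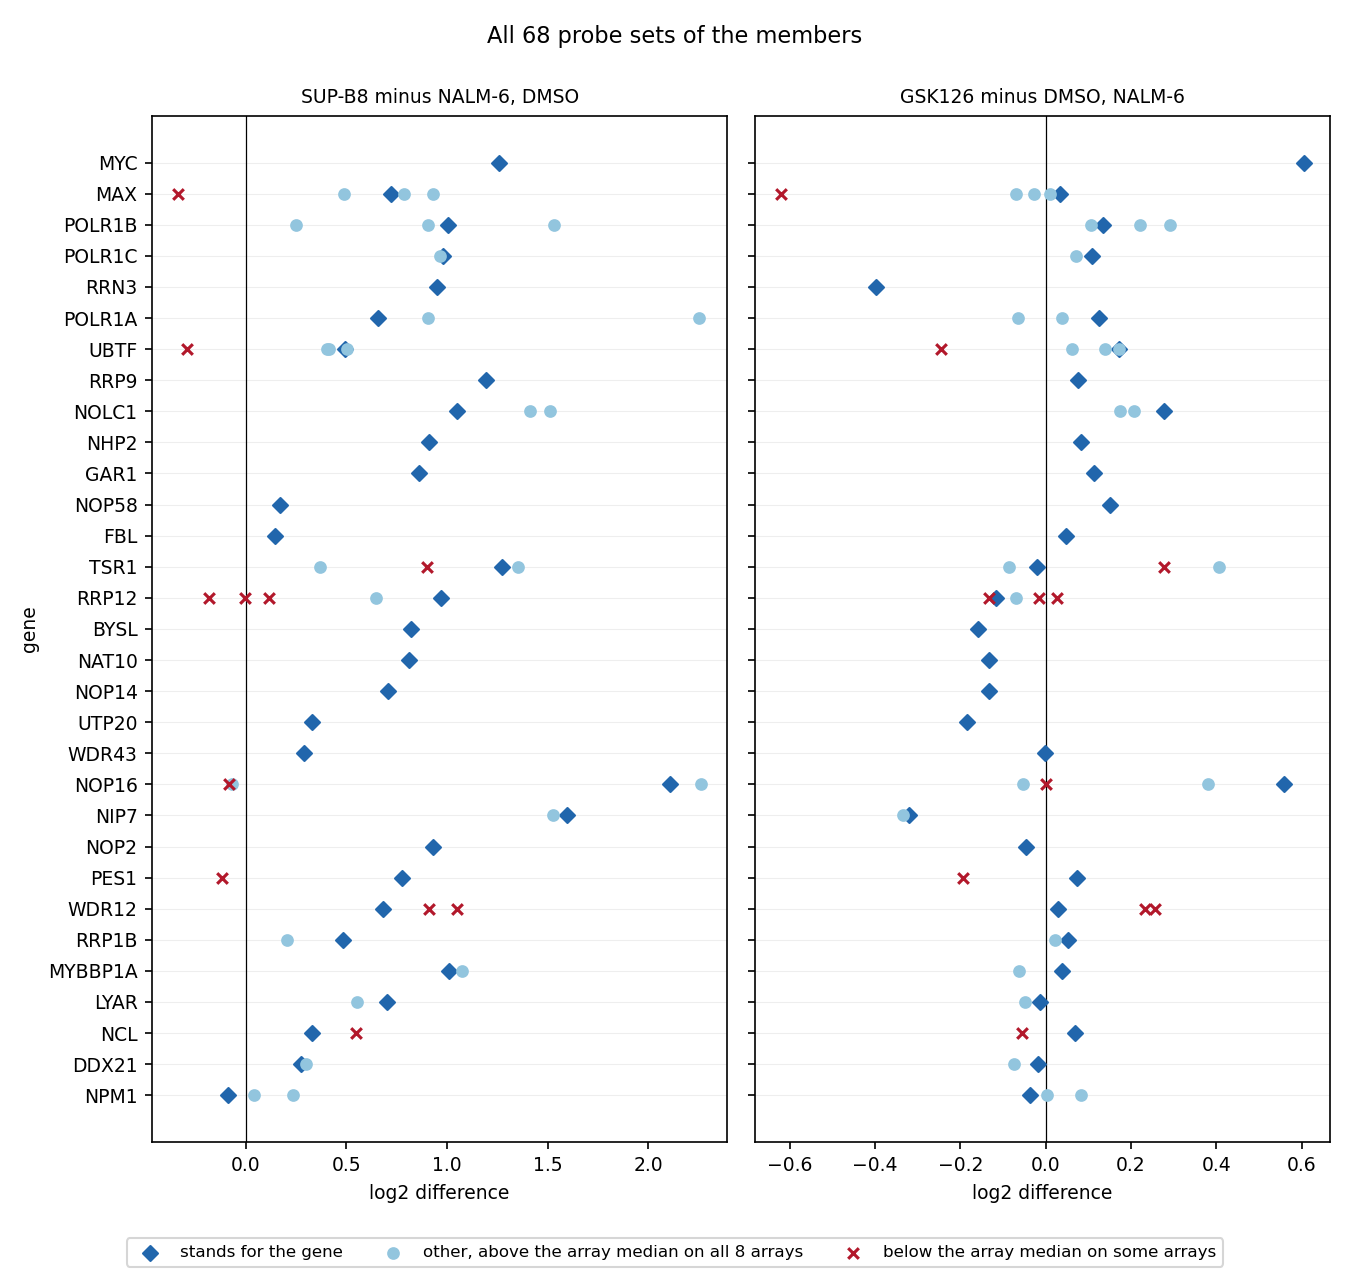
All 68 probe sets are shown by member (rows) with their log2 difference between the lines with DMSO (left) and with GSK126 in NALM-6 (right). Diamonds stand for the gene, circles are other probe sets above the array median on all 8 arrays, and crosses fell below it on some arrays. On the left nearly all diamonds and circles lie right of 0, and the marks left of 0 are mostly crosses.

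The symbol RNA45SN5 stands for the precursor of ribosomal RNA, as a copy of a repeated gene whose copies cannot be told apart here. It had 2 probe sets, and whether they read the precursor or the RNAs cut from it was not tested. The brighter one read 9.16 and 9.23 in SUP-B8 with DMSO and 9.28 and 9.18 with GSK126. In NALM-6 it read 10.35 and 10.28 with DMSO and 13.06 and 12.98 with GSK126. It rose by 2.70 ± 0.06 in NALM-6 (limma adjusted p = 2.21e-07) and differed by 0.04 ± 0.06 in SUP-B8 (adjusted p = 0.768), and the responses differed by -2.66 ± 0.08 (adjusted p = 4.23e-06). Between the lines with DMSO it was lower in SUP-B8 by -1.13 ± 0.06, opposite in sign to 30 of 31 members. The other probe set gave 2.55 in NALM-6, -0.10 in SUP-B8 and -1.21 between the lines. Per the labels the labelled RNA was made from polyadenylated RNA, and the precursor normally carries no poly(A) tail, so the values show what was captured and not the amount of precursor.

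Genes of the same pathways that are not members were taken from lists, which were also chosen with earlier results of these data known. With DMSO the other small-subunit factors were called higher in SUP-B8 in 25 of 36 and lower in 6 (median 0.54), led by DDX52 (2.12), UTP11 (1.36) and UTP23 (1.23). The other large-subunit factors were higher in 28 of 36 and lower in 6 (median 0.38), led by FTSJ3 (1.68), MRTO4 (1.31) and MDN1 (1.27). Of 12 other snoRNP assembly genes 9 were higher and 1 lower, SHQ1 most (1.49). These shares of genes called higher lay above the 37.8% of all genes, and each list also held genes called lower.

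The polymerases were mixed. Of 10 other RNA polymerase I genes 6 were called higher and 3 lower in SUP-B8 with DMSO, from the subunit POLR1G at 2.29 and the terminator factor TTF1 at 1.67 to TAF1B, part of the promoter factor SL1, at -1.86. RNA polymerase III genes were higher in 13 of 19 and lower in 3 (median 0.49). RNA exosome genes, which trim and degrade RNA, were higher in 5 of 13 and lower in 4, with EXOSC6 at 1.67 and EXOSC8 at -1.25. Cytosolic ribosomal proteins, the end users of assembly, were higher in 0 of 54 and lower in 5 (median -0.03, 8 at an unadjusted p under 0.05), with RPL27A at -0.37 and RPLP2 at -0.35. RPL36A, at -0.70, is 1 of the 5, but it passed the filter only through the NALM-6 DMSO arrays, so a lower value in SUP-B8 was built into its selection. Many ribosomal proteins have processed pseudogenes that probe sets may read, and 26 of the 80 listed had no probe set with a single symbol.

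Other parts of the MYC network were compared too, where 37.8% of all genes tested were called higher and 30.6% lower. Of 18 other textbook MYC targets 14 were called higher in SUP-B8 with DMSO and 3 lower (median 0.43), with the chaperonin HSPE1 at 1.29, the folate carrier SLC19A1 at 1.23 and the co-chaperone FKBP4 at -1.33. Of 10 other MYC network factors 5 were higher and 1 lower: MLXIP, a partner of MLX, at 1.13, the MAX-binding repressor MNT at 0.58 and the MYC antagonist MXI1 at -1.53. Nucleotide synthesis genes were split, 6 of 14 higher and 6 lower, from CTPS1 at 1.24 to PRPS2 at -2.30.

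**Figure D5:**
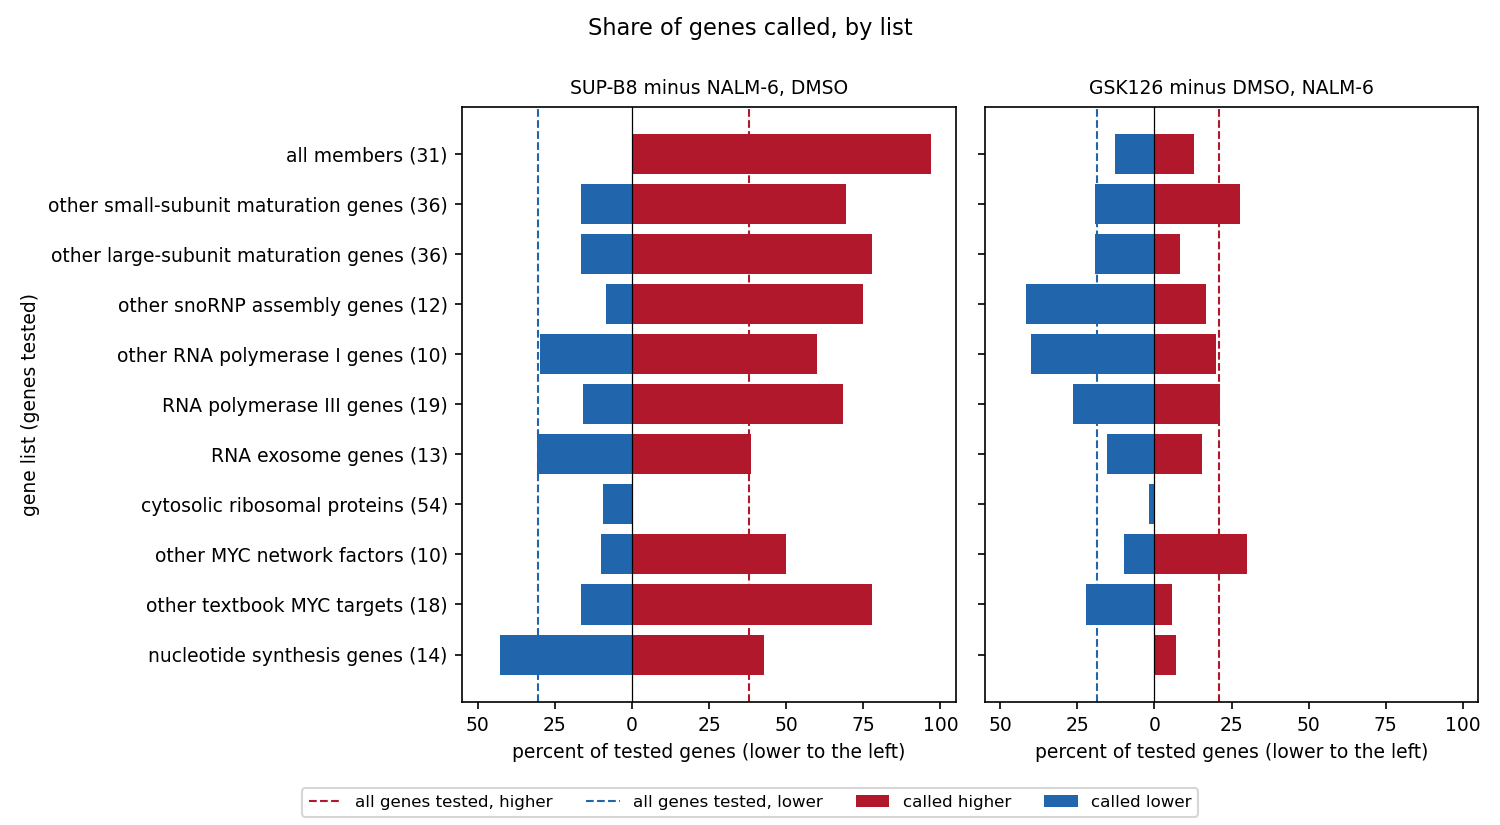
Bars give the percent of tested genes in each list called higher (right) or lower (left), for SUP-B8 minus NALM-6 with DMSO and for GSK126 minus DMSO in NALM-6, with the number of genes tested in brackets and dashed lines at the shares of all genes. The members reach 96.8% higher with 0 lower between the lines, the other assembly lists lie between 69.4% and 77.8% higher, and ribosomal proteins have no bar to the right in either panel.

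With GSK126 in NALM-6 the same lists held calls in both directions. Small-subunit factors were called higher in 10 of 36 and lower in 7, with UTP11 at 0.46, UTP25 at -0.52 and UTP15 at -0.62. Among 36 large-subunit factors 3 rose and 7 fell, with NIFK at 0.51, MRTO4 at 0.30 and RRP15 at -0.40. Of 12 other snoRNP assembly genes 2 rose and 5 fell, with PIH1D1 at 0.31, COIL at -0.39 and NAF1 at -0.50. The medians of the 3 lists were 0.01, 0.02 and -0.11. Against 20.8% of all genes called higher and 18.5% lower, the shares were 27.8% and 19.4% for small-subunit, 8.33% and 19.4% for large-subunit and 16.7% and 41.7% for snoRNP assembly genes.

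The RNA polymerase I genes outside the members included 2 called higher and 4 lower of 10 in NALM-6 with GSK126: POLR1G rose by 0.43 ± 0.06, while TAF1A and TAF1D, both of the promoter factor SL1, were at -0.66 ± 0.05 and -0.70 ± 0.09. Among 19 RNA polymerase III genes 4 rose and 5 fell, with POLR3B at 0.31, GTF3C3 at -0.25 and POLR3K at -0.37. Among 13 exosome genes 2 rose and 2 fell, with EXOSC4 at 0.35, EXOSC2 at 0.27 and DIS3 at -0.29. Of 54 ribosomal proteins 1 was called, RPL36A at -0.86 ± 0.11. It lay below the array medians in all groups but NALM-6 with DMSO, where it read 7.44 and 7.71, so it was tested only because of the group in which it was high, and its call is no evidence of a fall.

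Among other MYC network factors 3 were called higher and 1 lower of 10 in NALM-6 with GSK126. MYCL, a paralogue of MYC, rose by 0.71 ± 0.05 (limma adjusted p = 1.52e-05), from 7.01 and 6.998, below the array medians, to 7.71 and 7.73. MLXIP rose by 0.59 ± 0.05, and the MAX partner MGA was at -0.46 ± 0.06. Of 18 textbook MYC targets 1 rose and 4 fell, with the transferrin receptor TFRC at 0.38, the cap-binding factor EIF4E at -0.39 and HSPE1 at -0.43. Nucleotide synthesis had 1 of 14 called, UMPS at 0.20. For the textbook targets these are 5.56% higher and 22.2% lower, against 20.8% and 18.5% of all genes tested.

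Proliferation markers were called lower in 6 of 7 in NALM-6 with GSK126, against 18.5% of all genes tested. CCNB1 differed by -0.44 ± 0.05, MKI67 by -0.43 ± 0.07 and BUB1 by -0.30 ± 0.05, and PCNA was not called. The MKI67 fall rests on 1 of 4 probe sets, the others being at -0.17, 0.05 and -0.07 and not called. Their mean level went from 12.58 to 12.62 on the DMSO arrays to 12.37 to 12.38 on the GSK126 arrays. In SUP-B8 0 of 7 were called (0 at an unadjusted p under 0.05). The part of growth rate in the members' responses was not tested.

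In SUP-B8 with GSK126 the lists outside the members held 2 called genes: the helicase DDX52 fell by 0.26 on the log2 scale (± 0.05, limma adjusted p = 0.0327) and PRPS2, a synthetase of nucleotide precursors, rose by 0.37 ± 0.07 (adjusted p = 0.0479). Of 36 other small-subunit factors 35 had differences below 0 (median -0.10), and of 36 large-subunit factors 34 (median -0.09), while 31 of 54 ribosomal proteins did. Here too the signs are not independent, as all genes were read on the same arrays. These comparisons share the DMSO arrays with the comparison between the lines, so their values are given side by side and no relation between them was computed.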

How the data were processed

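Processed values of 8 arrays were analysed, 4 groups of 2. The deposited table holds a log2 value for each probe set and array. MAS5 and RMA appear, per the submitters' processing notes, without a version or a stated role. The log2 scale was read from the deposited values, which were not transformed. In the platform annotation 41097 of 54675 probe sets had 1 symbol, 1801 several and 11777 none here. A gene was tested when at least 2 of 8 arrays lay above their medians, on its probe set with the highest mean. The test was limma 3.58.1 in R 4.3.3, with 1 mean per group and 4 residual degrees of freedom, and was tested on simulated data. Python 3.11.15 prepared the tables. Detection calls were not used. A group below the array medians is not shown to be above background.

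Members and the 17 lists were chosen with earlier results of these data known. Values on each array were given for MYC, MAX and the 2 members of each role with the largest difference in each comparison, and up to 3 called genes were named from each list. Members and list genes named beyond that rule were chosen after their values were seen. Alternatives were other filters, probe set means, normalizations, variance prior, arrays in the fit, a replicate block and omission of each array.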

Additional observations from a re-analysis of the deposited data

Results flagged for a closer look

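The genes named here responded differently to GSK126 in arrays labelled SUP-B8 and in those labelled NALM-6. They were called by limma's test of the difference between the responses (SUP-B8 minus NALM-6, log2, Benjamini-Hochberg adjusted over all genes tested). Of all genes tested 25.4% were called in it, against 12.9% of the members. Other list genes and cell type and proliferation markers were called too and are not named here. Among the members these were NOP16 (-0.70), MYC (-0.64), NOLC1 (-0.44) and POLR1B (-0.28). The call on POLR1B was lost with no filter and with centred arrays. The widest gap among the genes named here was that of the ribosomal RNA symbol RNA45SN5 (-2.66).

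Outside the members, the response was lower in SUP-B8 for the assembly factors UTP11 (-0.60), NIFK (-0.60), DDX52 (-0.47), MRTO4 (-0.41) and PIH1D1 (-0.38). It was lower too for MLXIP (-0.59), MYCL (-0.53), POLR1G (-0.47), TFRC (-0.42), EXOSC2 (-0.35) and UMPS (-0.26). DDX52 was called in both lines with opposite signs, 0.21 ± 0.05 in NALM-6 and -0.26 ± 0.05 in SUP-B8.

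The response was higher in SUP-B8 for TAF1D (0.66), TAF1A (0.64), UTP15 (0.50), PRPS2 (0.50) and UTP25 (0.47). It was higher as well for NAF1 (0.39), MGA (0.36), RRP15 (0.29) and EIF4E (0.26). RPL36A is listed too (0.74), but it was above the array medians only in NALM-6 with DMSO, the group that let it pass the filter, so this value is built into its selection. Groups of 2 arrays were too small to look for single arrays that stand apart.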

How the results depend on the processing

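Between the lines with DMSO, 28 to 30 members were called higher under each of 16 settings tried, omissions of single arrays included, and 1 was called lower (NPM1) with a trended robust prior. With GSK126 in NALM-6, members called higher numbered 8 with a second quantile normalization and 8 with the trended robust prior, and those called lower 2 with no filter and 1 to 3 in the omissions: 1 without NALM-6 DMSO replicate 2 or GSK126 replicate 2, and 2 without NALM-6 DMSO replicate 1, NALM-6 GSK126 replicate 1 or either SUP-B8 GSK126 array. MYC, NOP16, NOLC1 and RRN3 were called there under all 16. In SUP-B8 the members called lower numbered 4 with the trended prior and 0 under the other settings. Genes called there in all, 252 higher and 44 lower, became 146 and 14 with no filter, 504 and 273 with the trended prior, and 24 to 193 and 3 to 24 in the omissions, lowest without SUP-B8 GSK126 replicate 1 and at most 115 higher without any 1 SUP-B8 array. Those called lower were 18 with only the 4 arrays compared. For the difference of the responses, members called lower were 7 with probe set means, 9 with quantile normalization and 8 with the trended prior, and members called higher were 1 with probe set means, 1 with the trended prior and 0 to 1 in the omissions (RRN3, without NALM-6 DMSO replicate 1). Of all 13161 genes tested, 2741 were called higher in NALM-6 in the main fit. This became 3160 with a second quantile normalization and 2926 with the trended prior. For the difference of the responses, 1903 genes were called lower in the main fit. This became 1893 with probe set means, 2227 with quantile normalization and 2242 with the trended prior. Member counts rose more, for their number, than those of all genes. The cause of these shifts was not tested. With probe set means MAX in NALM-6 turned to -0.13, RRP15 to 0.009 (-0.10 for the difference), DIS3 to 0.022 and CCNB1 between the lines to 0.070, since probe sets of 1 gene disagree. Centring the arrays changed the split of all genes called in the difference from 1440 higher and 1903 lower to 1562 and 1379. The E-box count of 4 members became 14 in the whole window. The replicate numbers were not taken to pair the arrays: there are only 2, and deviations of equal numbers correlated at -0.04 in SUP-B8, -0.02 in NALM-6, 0.13 between the DMSO arrays of both lines and 0.04 between the GSK126 arrays. With a replicate block 23 genes were called lower in SUP-B8, and member counts were 30 between the lines and 4 higher and 3 lower in NALM-6. The number of arrays limits the precision, and small changes such as those in SUP-B8 are near that limit.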
